A study of Homo sapiens with 4 samples.

Results

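The genes described here encode the enzymes that make and use 2-oxoglutarate at the isocitrate step of the tricarboxylic acid (TCA) cycle, and those that form or remove its reduced derivative 2-hydroxyglutarate. They were taken by gene symbol: IDH1, IDH2, IDH3A, IDH3B, IDH3G, OGDH, D2HGDH and ADHFE1. These are 8 of the 61806 genes in the table, and each symbol matched 1 gene. The choice used no threshold on expression, but it was made with earlier results of these data known. RNA sequencing had been done on 4 libraries of poly(A)-selected RNA. JJ012, a human chondrosarcoma line, and 143B, a human osteosarcoma line, were kept in suspension, either left untreated (control) or given 1 mM melatonin for 72 h. Each of the resulting groups, JJ012 control, JJ012 melatonin, 143B control and 143B melatonin, was 1 library, so every tumour type was represented by 1 line and no difference within a line could be tested. Errors given below are 95% counting intervals, which cover the sampling of reads and not the spread between cultures.

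Isocitrate dehydrogenases convert isocitrate to 2-oxoglutarate. IDH1, in the cytosol and peroxisomes, and IDH2, in mitochondria, do so with NADP+ and yield NADPH, whereas the mitochondrial enzyme built from the catalytic subunit IDH3A and the regulatory subunits IDH3B and IDH3G uses NAD+ and feeds the TCA cycle. Mutant forms of IDH1 or IDH2, a known feature of chondrosarcoma, reduce 2-oxoglutarate to D-2-hydroxyglutarate, which competes with 2-oxoglutarate at many dioxygenases. The expression values below carry no information on alleles.

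Library totals ranged from 15889564 to 19218343 counts, so that 3 counts, taken as the limit of detection, corresponded to 0.156 to 0.189 CPM, the count scaled to the library total. Between 13198 and 14477 genes per library reached 1 FPKM, the count scaled to exonic length and library total. The share of counts from mitochondrially encoded genes was 6.78% in JJ012 control, 4.35% in JJ012 melatonin, 1.63% in 143B control and 2.46% in 143B melatonin. The labelled tumour types were only partly visible in the chondrocyte markers, and the osteoblast list went against the labels by count and by sum. In JJ012 control 2 of 8 chondrocyte markers reached 1 FPKM, SOX9 and COL11A1, and COL2A1, COL9A1 and HAPLN1 were at or below 3 counts. In 143B control 2 of 8 osteoblast markers did so, RUNX2 and BGLAP, and SP7, COL1A2 and IBSP were at or below 3 counts. SOX9 did not separate the lines, at 15.06 FPKM in JJ012 control and 15.48 in 143B control. COL11A1 did, at 22.92 FPKM in JJ012 control and 0 in 143B control. ACAN and COMP went against the labels, with 4 counts each in JJ012 control and 19 and 24 in 143B control. MATN3 had 55 counts in JJ012 control and 32 in 143B control. Of the osteoblast markers 4 of 8 reached 1 FPKM in JJ012 control, where SPP1 alone had 79.39 FPKM, against 0.4 in 143B control. RUNX2 was higher in 143B control, at 4.28 against 3.02 FPKM, as was BGLAP, on only 22 counts against 15. ALPL was about level, at 0.36 FPKM in 143B control (17 counts) and 0.35 in JJ012 control (20 counts). The summed level of the chondrocyte markers was 39.01 FPKM in JJ012 control, 9.76 in JJ012 melatonin, 16.74 in 143B control and 13.27 in 143B melatonin. That of the osteoblast markers was 107.2, 68.34, 6.97 and 5.08 FPKM in the same order. The part of these differences in the results below was not tested.

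Of the 8 genes, 7 were above 1 FPKM in every library and ADHFE1 was below it in every library. The lines differed in which enzyme dominated. In JJ012 control IDH3G had the highest level, 34.41 FPKM, followed by IDH2, IDH1 and OGDH between 16.49 and 19.23 FPKM. In 143B control IDH2 had the highest level at 47.15 FPKM, 2.70 times the next gene, IDH3B (interval 2.48 to 2.95), a ratio that was 1.39 with transcript lengths. IDH3A, the catalytic subunit of the NAD-dependent enzyme, was the lowest of the 7 in both controls. With melatonin the order in JJ012 was headed by OGDH, ahead of IDH3G by a ratio of levels of 1.09 (1.02 to 1.18), and IDH3A passed D2HGDH. The order in 143B melatonin was that of 143B control. Neighbours whose ratio of levels had an interval holding 1 were IDH2 and IDH1 in JJ012 control (1.07, 0.990 to 1.16), IDH2 and IDH3B in JJ012 melatonin (1.06, 0.933 to 1.20) and IDH3G and OGDH in 143B melatonin (1.06, 0.955 to 1.18). The order rests on the exonic lengths used for FPKM. With the length of the transcript that has the longest coding sequence (GENCODE release 29), 4 of 8 places were kept in JJ012 control, 3 in JJ012 melatonin and all 8 in both 143B libraries. On these lengths IDH3G and not OGDH headed JJ012 melatonin, and IDH2 in JJ012 control was in place 5 and not 2.

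**Figure D1:**
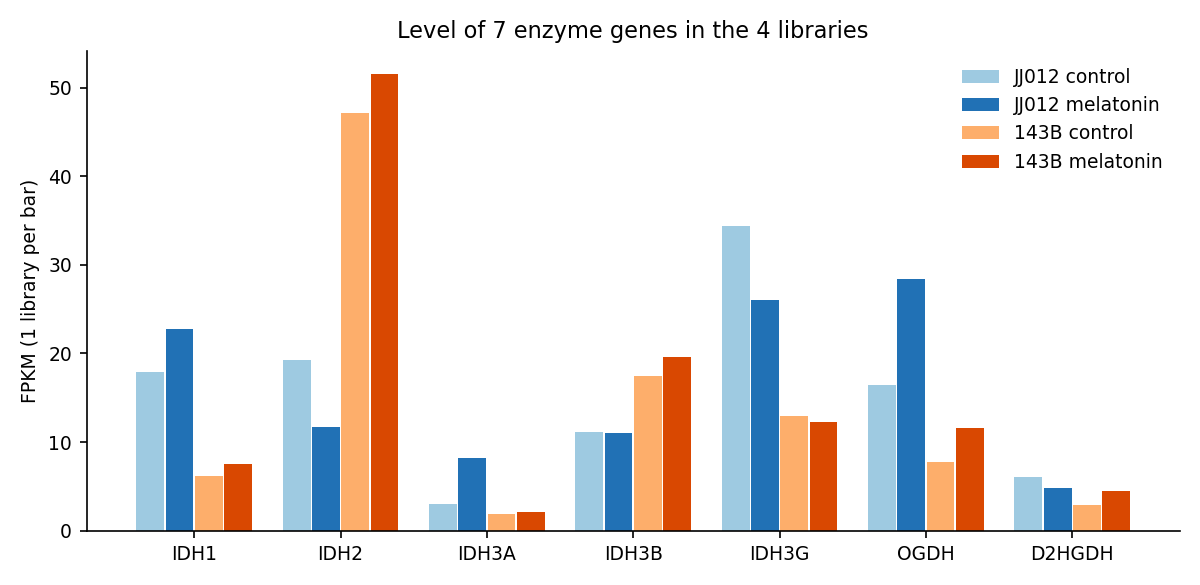
Level in FPKM (vertical axis, linear, from 0) of 7 of the 8 genes in the 4 libraries, 1 bar per library, with no error bar because each group is 1 library. ADHFE1, at 0.03 to 0.17 FPKM, is not drawn. IDH2 is highest in 143B and IDH3G in JJ012 control, and IDH3A is the lowest of the drawn genes in both controls.

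IDH1 (ENSG00000138413; chromosome 2, 208236229 to 208266074, minus strand, GRCh38) had 17.95 FPKM in JJ012 control, 22.77 in JJ012 melatonin, 6.13 in 143B control and 7.55 in 143B melatonin. Both JJ012 libraries were above both 143B libraries, and in each line the melatonin library was the higher. The ratio of CPM, melatonin over control, was 1.27 (1.18 to 1.36) in JJ012 and 1.23 (1.09 to 1.39) in 143B. Calls were made on the log2 fold change of FPKM + 1, at a size of at least 0.58 among genes with at least 1 FPKM in 1 of the compared libraries. On this scale the melatonin changes of IDH1 were 0.33 in JJ012 and 0.26 in 143B, neither of which was called. In JJ012, 62.5% of the genes tested changed by as much or more. Only under TPM, the FPKM rescaled to the same sum in each library, did the JJ012 value reach the threshold, at 0.61. The antisense gene IDH1-AS1 lies within IDH1 on the other strand and had 1 to 14 counts per library, against 458 to 1727 for IDH1.

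IDH2 (ENSG00000182054; chromosome 15, 90083045 to 90102477, minus strand) was lower with melatonin in JJ012 and changed little in 143B. Its levels were 19.23 FPKM in JJ012 control, 11.71 in JJ012 melatonin, 47.15 in 143B control and 51.57 in 143B melatonin. IDH2 fell in JJ012 by 0.67 on the log2 scale of FPKM + 1, with a ratio of CPM of 0.609 (0.547 to 0.677). In 143B its log2 change was 0.13 and its ratio of CPM 1.09 (1.03 to 1.16), which was not called. Of the genes tested in 143B, 67.3% changed by as much or more. Under TPM the 143B change was 0.07, and after subtraction of the running median over exonic length it was 0.05. Among all genes tested in JJ012, 31.6% changed by as much or more. The JJ012 call was lost under TPM, where the log2 change was −0.43, and after subtraction of the running median over exonic length, where it was −0.45.

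The balance between the NADP-dependent enzymes differed by line and, in JJ012, by treatment. The level of IDH2 divided by that of IDH1 was 1.07 (0.990 to 1.16) in JJ012 control and 0.515 (0.466 to 0.568) in JJ012 melatonin. In 143B the same ratio was 7.69 (6.94 to 8.52) in control and 6.83 (6.25 to 7.48) in melatonin. Since both genes of a ratio come from the same library, the library total does not enter it. The exonic lengths do, and with transcript lengths the ratio was 0.576 in JJ012 control and 4.13 in 143B control. A trend of the JJ012 melatonin change with exonic length, described below, also enters the change of the ratio. The running median of the log2 change over exonic length was −0.22 at IDH2 and 0.06 at IDH1. Its part in the change of the ratio was not tested. Of the summed FPKM of the 5 isocitrate dehydrogenase genes, IDH1 and IDH2 together held 43.4% in JJ012 control and 43.3% in JJ012 melatonin, against 62.3% and 63.5% in the 143B libraries. Within this nearly level JJ012 share, IDH1 went from 20.9% to 28.6% and IDH2 from 22.4% to 14.7%. These shares rest on the exonic lengths and were not computed with transcript lengths. Such lengths lower IDH2 against IDH3B in 143B control from a ratio of 2.70 to 1.39, so the shares would differ. The sum itself was 85.73 FPKM in JJ012 control, 79.68 in JJ012 melatonin, 85.55 in 143B control and 93.14 in 143B melatonin.

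**Figure D2:**
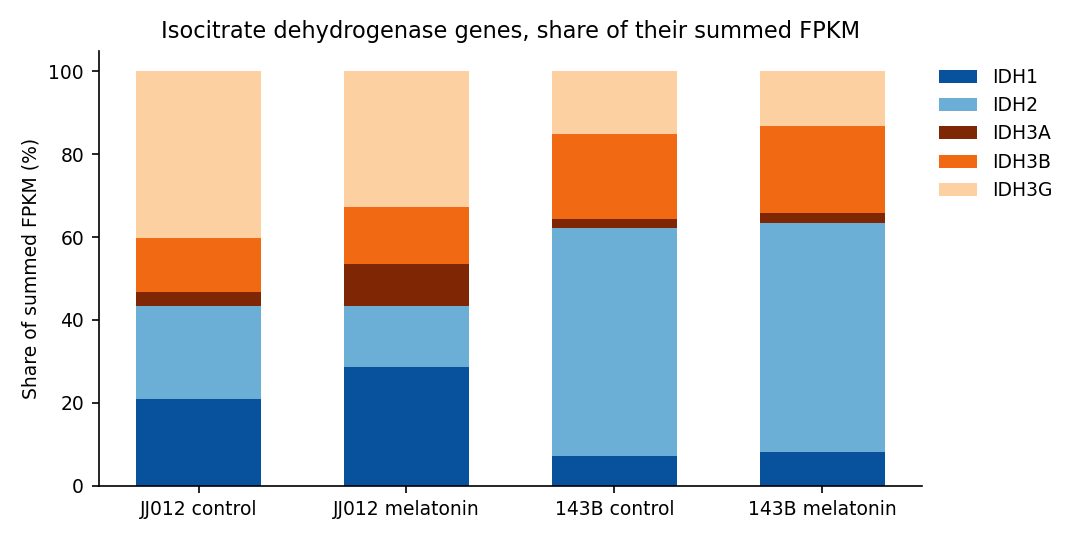
Share (%) of the summed FPKM of IDH1, IDH2, IDH3A, IDH3B and IDH3G held by each gene, 1 stacked bar per library. IDH2 holds 55.1% and 55.4% in the 143B libraries, against 22.4% and 14.7% in JJ012, and IDH3A holds 10.3% in JJ012 melatonin against 2.16% to 3.46% in the other libraries. The shares rest on exonic lengths.

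IDH3A (ENSG00000166411; chromosome 15, 78131498 to 78171945, plus strand) carries the active site of the NAD-dependent enzyme and had the largest melatonin change of the 7 genes tested, in JJ012. Its levels were 2.97 FPKM in JJ012 control, 8.17 in JJ012 melatonin, 1.85 in 143B control and 2.09 in 143B melatonin. The JJ012 melatonin library stood above the others. IDH3A rose in JJ012 by 1.21 on the log2 scale of FPKM + 1, with 389 counts in control and 900 in melatonin and a ratio of CPM of 2.75 (2.44 to 3.11). Of all genes tested in JJ012, 7.95% changed by as much or more. In 143B the ratio of CPM was 1.13 (0.933 to 1.37), and its interval held 1. Over the scalings tried, the log2 change in JJ012 lay between 1.07 and 1.65. ACSBG1, an acyl-CoA synthetase gene on the other strand, overlaps the span of IDH3A over 4478 bases and had 320, 268, 5 and 7 counts in JJ012 control, JJ012 melatonin, 143B control and 143B melatonin. Whether counting used the strand is not given in the sources used here, and an exchange of reads between these genes was not tested.

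Neither regulatory subunit was called in either line. IDH3B (ENSG00000101365; chromosome 20, 2658395 to 2664219, minus strand) had 11.17 FPKM in JJ012 control, 11.05 in JJ012 melatonin, 17.43 in 143B control and 19.65 in 143B melatonin. Its ratio of CPM was 0.990 (0.872 to 1.12) in JJ012 and 1.13 (1.02 to 1.25) in 143B. The log2 change in JJ012 was −0.01, and it ran from −0.03 to 0.25 over the scalings, so that its sign depended on the scale. IDH3G (ENSG00000067829; chromosome X, 153785766 to 153794512, minus strand) had 34.41 FPKM in JJ012 control, 25.98 in JJ012 melatonin, 12.99 in 143B control and 12.28 in 143B melatonin. Its log2 changes of FPKM + 1 were −0.39 in JJ012, where the ratio of CPM was 0.755 (0.700 to 0.814), and −0.08 in 143B, and neither was called. SSR4, a translocon-associated protein gene on the other strand, overlaps IDH3G over 997 bases and had 2495, 1180, 1277 and 1329 counts in JJ012 control, JJ012 melatonin, 143B control and 143B melatonin. It was lower in the JJ012 melatonin library than in JJ012 control, as IDH3G was, and its part in the IDH3G value was not tested.

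The proportions of the subunits were set by these levels. IDH3A had 0.266 (0.233 to 0.303) of the level of IDH3B in JJ012 control and 0.739 (0.660 to 0.829) in JJ012 melatonin. In 143B this ratio was 0.106 in both libraries (0.0905 to 0.125 in control and 0.0920 to 0.123 in melatonin). IDH3G had 3.08 (2.80 to 3.40) times the level of IDH3B in JJ012 control and 2.35 (2.11 to 2.63) times in JJ012 melatonin, but 0.745 (0.666 to 0.834) and 0.625 (0.561 to 0.695) of it in 143B. Thus the catalytic subunit was the least abundant transcript of the 3 in every library, while the more abundant regulatory subunit was IDH3G in JJ012 and IDH3B in 143B. With transcript lengths in place of exonic lengths, the ratio of IDH3A to IDH3B was 0.219 in JJ012 control and 0.609 in JJ012 melatonin. The running median of the JJ012 log2 change over exonic length was 0.14 at IDH3A and −0.19 at IDH3B. Its part in the change of this ratio was not tested.

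The stretches upstream of IDH3A and IDH3B are shown because the genes encode subunits of 1 enzyme and yet had different melatonin changes in JJ012. That of D2HGDH is shown because its changes in the lines had opposite signs. The sequences are from the RefSeq promoter windows (GRCh38.p14), which hold entries for IDH1, IDH2, IDH3A, IDH3B, IDH3G and D2HGDH, that is 6 of the 8 genes. Each is printed 5′ to 3′ on the strand of its gene, from 250 bases before the start to the last base outside exons of protein-coding genes in GENCODE release 29. The IDH3A stretch lies in an intron of a noncoding IDH3A transcript that starts farther upstream, the IDH3B stretch overlaps an exon of the antisense gene AL049712.1 on the other strand, and the D2HGDH stretch lies between genes. Capitals mark GC boxes (GGGCGG) and ETS cores (CCGGAA) on either strand.
IDH3A (chr15:78149112-78149320, plus strand): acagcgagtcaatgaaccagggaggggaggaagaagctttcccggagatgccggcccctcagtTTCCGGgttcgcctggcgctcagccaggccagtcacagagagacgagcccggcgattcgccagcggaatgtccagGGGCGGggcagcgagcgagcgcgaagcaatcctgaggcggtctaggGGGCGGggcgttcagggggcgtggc
IDH3B (chr20:2664220-2664466, minus strand): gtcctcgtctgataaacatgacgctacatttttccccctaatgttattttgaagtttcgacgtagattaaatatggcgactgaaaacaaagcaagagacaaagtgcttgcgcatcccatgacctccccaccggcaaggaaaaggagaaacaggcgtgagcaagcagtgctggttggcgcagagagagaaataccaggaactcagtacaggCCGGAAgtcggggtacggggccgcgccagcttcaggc
D2HGDH (chr2:241734380-241734578, plus strand): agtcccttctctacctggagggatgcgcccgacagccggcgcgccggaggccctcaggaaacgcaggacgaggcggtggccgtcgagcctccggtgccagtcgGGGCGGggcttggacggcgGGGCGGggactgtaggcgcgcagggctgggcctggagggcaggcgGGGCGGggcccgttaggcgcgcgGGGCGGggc
The IDH3A stretch of 209 bases held 20 CpG and 67.9% G and C, against medians of 8 CpG and 57.4% over 35116 windows of the same length. It held 2 GC boxes and 1 ETS core, motifs found in 36.9% and 10.8% of those windows. The IDH3B stretch of 247 bases held 14 CpG (median 11), 51.4% G and C and 1 ETS core, which 14.3% of windows of that length hold, and no GC box. The D2HGDH stretch of 199 bases was the richest in G and C of the 3, at 77.9% with 26 CpG, and held 4 GC boxes, at least 1 of which occurs in 34.8% of windows. None of the 3 stretches held a CCAAT box (CCAAT), an E box (CACGTG), the core GCATGC or the core TGACNNNGC, searched on both strands. The matches describe letters and not binding, and no motif searched overlapped another.

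OGDH (ENSG00000105953; chromosome 7, 44606572 to 44709066, plus strand) encodes the first enzyme of the 2-oxoglutarate dehydrogenase complex, which consumes 2-oxoglutarate in the TCA cycle. It had 16.49 FPKM in JJ012 control, 28.43 in JJ012 melatonin, 7.70 in 143B control and 11.59 in 143B melatonin. In each line the melatonin library was the higher. OGDH rose in JJ012 by 0.75 on the log2 scale of FPKM + 1, with a ratio of CPM of 1.72 (1.62 to 1.84), and 26.4% of the genes tested changed by as much or more. In 143B the log2 change was 0.53, just under the threshold, with a ratio of CPM of 1.51 (1.36 to 1.66), and 14.9% of the genes tested there changed by as much or more. With a pseudocount of 0.1 FPKM the 143B value was 0.58 and was called.

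D2HGDH (ENSG00000180902; chromosome 2, 241734602 to 241768816, plus strand) encodes the mitochondrial dehydrogenase that oxidises D-2-hydroxyglutarate back to 2-oxoglutarate. Its levels were 6.11 FPKM in JJ012 control, 4.78 in JJ012 melatonin, 2.93 in 143B control and 4.49 in 143B melatonin. The JJ012 control library was the highest and the 143B control library the lowest, while the melatonin libraries lay close together between them. The ratio of CPM was 0.783 (0.689 to 0.889) in JJ012 and 1.53 (1.30 to 1.80) in 143B. On the log2 scale of FPKM + 1 the changes were −0.30 and 0.48, neither of which was called. In 143B the change was called with a pseudocount of 0.1 FPKM, at 0.60, and on the CPM scale. The level of D2HGDH divided by that of IDH1 was 0.340 (0.310 to 0.374) in JJ012 control, 0.210 (0.188 to 0.234) in JJ012 melatonin, 0.478 (0.408 to 0.560) in 143B control and 0.595 (0.523 to 0.675) in 143B melatonin.

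ADHFE1 (ENSG00000147576; chromosome 8, 66432492 to 66468907, plus strand) encodes a mitochondrial transhydrogenase that forms D-2-hydroxyglutarate from 2-oxoglutarate. It had 5 counts in JJ012 control, 9 in JJ012 melatonin, 4 in 143B control and 2 in 143B melatonin, which correspond to 0.08, 0.17, 0.07 and 0.03 FPKM. These values were near the limit of detection and the gene passed the filter in no comparison. The JJ012 ratio of CPM was 2.14 with an interval of 0.645 to 8.14, so a change was not detectable at this depth.

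Counted together, 2 of the 7 genes tested rose and 1 fell in JJ012 with melatonin, where 38.2% of all 15794 genes tested were called, 19.6% higher and 18.6% lower. A share of 3 in 7 at such a background does not set these genes apart. In 143B none of the 7 was called, at a background of 12.7% of 14135 genes, 6.09% higher and 6.65% lower. Over protein-coding genes alone the background was 33.9% of 11534 in JJ012 and 6.09% of 10878 in 143B. By the ratio of CPM with an interval that excludes 1, OGDH and D2HGDH passed the same fold in 143B, at a background of 14.4%. A melatonin effect shared by the lines was fitted on all 4 libraries with line as a block (edgeR quasi-likelihood test, 1 residual degree of freedom, TMM), chosen after seeing the data. None of the 7 passed an adjusted p of 0.05 in that fit, at a background of 0.453% of 18107 genes, and the smallest adjusted p was 0.842 for IDH3A, the only one of the 7 with an unadjusted p under 0.05. Its shared log2 change was 0.81, which averages unlike changes. The log2 ratio of CPM of IDH3A was 1.46 in JJ012 and 0.17 in 143B, where the counting interval held 0. With length correction 2 of the 7, IDH3A and OGDH, were called in JJ012, at a background of 34.5%. The median log2 change of the 7 was −0.01 in JJ012 and 0.16 in 143B, against 0.01 and 0.03 over all genes tested. In bulk libraries a lower share of a kind of cell and less RNA per cell cannot be told apart.

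**Figure D3:**
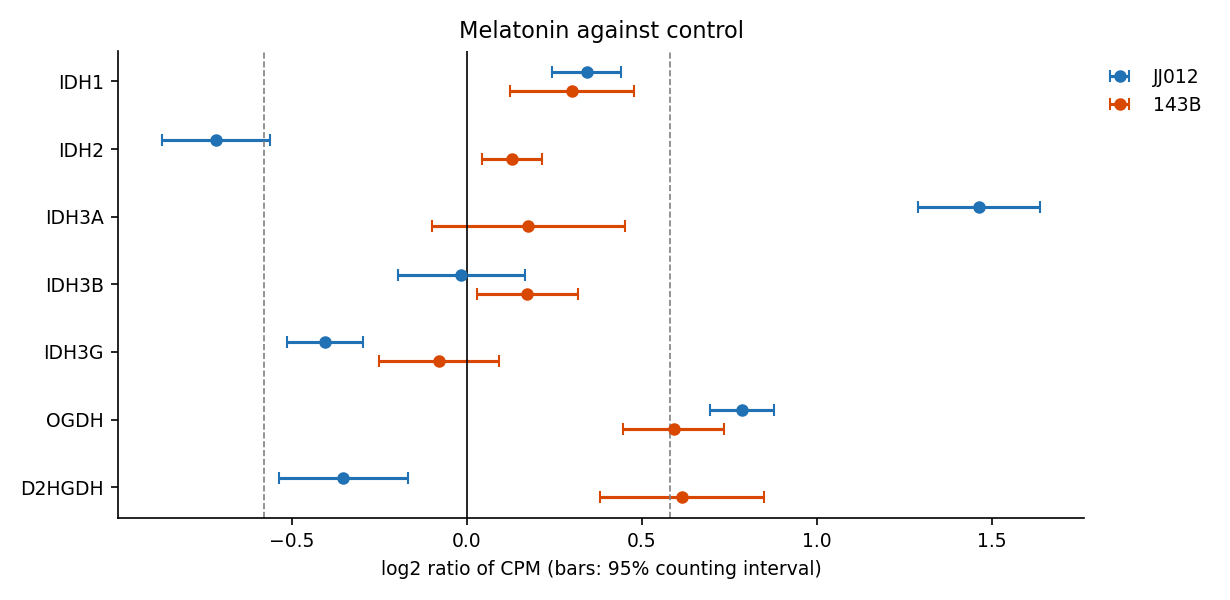
Melatonin against control as the log2 ratio of CPM (horizontal axis) for 7 genes, 1 point per line (JJ012 blue, 143B orange). Bars are exact 95% counting intervals, the solid line marks 0 and dashed lines mark −0.58 and 0.58. IDH3A and IDH2 stand apart between the lines, IDH1 overlaps, and D2HGDH has opposite signs.

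The melatonin changes of the lines were compared gene by gene as the JJ012 minus the 143B log2 ratio of CPM. The difference was at least 0.58 in size, with a counting interval that excluded 0, for 3 of the 7 genes, at a background of 44.3% of the 11642 genes tested in both lines, 23.2% higher and 21.2% lower in JJ012. IDH3A had the most positive difference, 1.29 (0.97 to 1.61). IDH2 and D2HGDH had negative differences of −0.84 (−1.02 to −0.67) and −0.97 (−1.26 to −0.67). IDH1 differed by 0.04 (−0.16 to 0.24) and IDH3B by −0.19 (−0.42 to 0.04), and these intervals held 0. OGDH, at 0.20 (0.03 to 0.36), and IDH3G, at −0.32 (−0.52 to −0.13), differed beyond counting error but by less than the threshold. Under TPM the IDH2 difference was −0.51, and after length correction it was −0.55, both below the threshold, whereas IDH3A and D2HGDH passed it under every scaling tried.

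In JJ012 the melatonin change moved with exonic length over the whole table. The median log2 change was −0.23 for 6034 genes under 3000 bases, −0.10 for 2578 genes of 3000 to 4500 bases and 0.19 for 7182 longer genes. In 143B the corresponding medians were 0.03, 0.06 and 0.02. The 7 genes are spread over this range: IDH3B, IDH3G and IDH2 have between 2567 and 2787 exonic bases, and IDH1, OGDH, D2HGDH and IDH3A between 4699 and 6823. The shorter genes had log2 changes of −0.67 to −0.01 in JJ012, and of the longer ones all but D2HGDH were above 0. Relative to the running median over exonic length, the JJ012 values were 1.07 for IDH3A, 0.69 for OGDH, 0.27 for IDH1, 0.17 for IDH3B, −0.18 for IDH3G, −0.36 for D2HGDH and −0.45 for IDH2. The part of length in these changes was otherwise not tested.

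**Figure D4:**
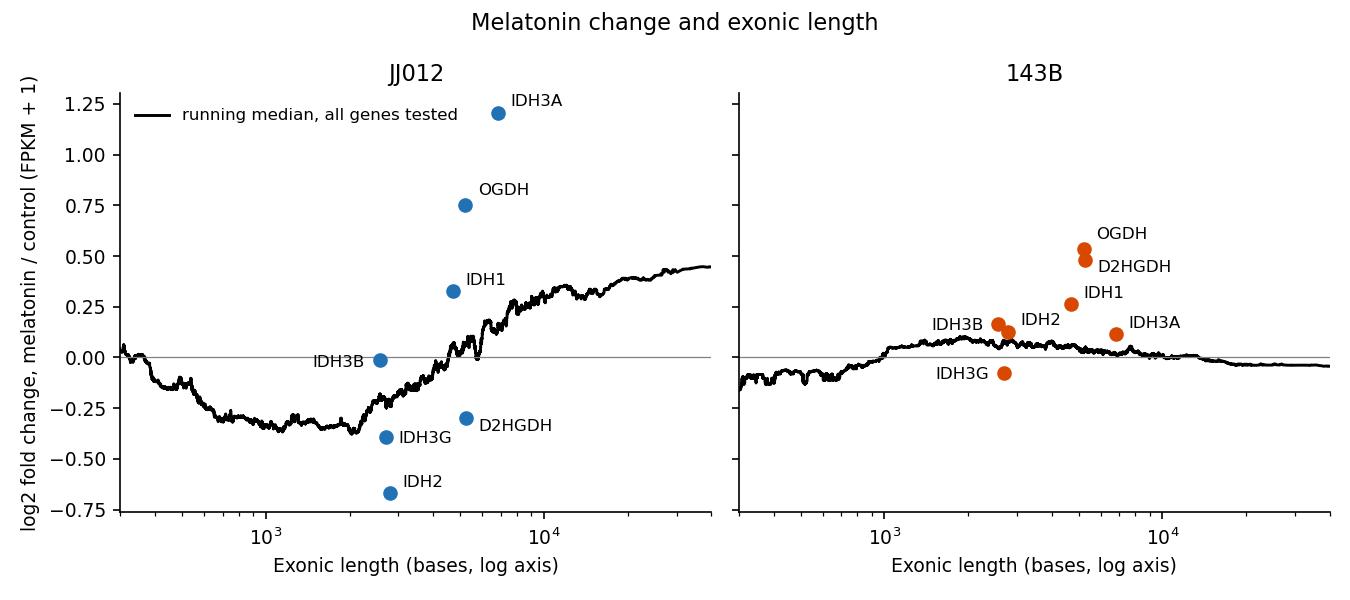
Log2 fold change of FPKM + 1, melatonin over control (vertical axis), against exonic length in bases (horizontal, log axis) in JJ012 (left) and 143B (right). Points are 7 genes and the line is the running median over all genes tested, which climbs with length in JJ012 and stays near 0 in 143B.

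More of the 7 genes were called between the lines than with melatonin, at a higher background of all genes. Not every gene followed this. IDH3A changed by 1.21 with melatonin in JJ012 and differed by 0.48 between the controls. D2HGDH changed by 0.48 in 143B and differed by 0.07 between the melatonin libraries. Between the control libraries 6 of 7 genes were called, 4 higher and 2 lower in JJ012, at a background of 68.7% of 16929 genes, 41.3% higher and 27.4% lower, and the median difference of the 7 was 0.86 against 0.29 over all genes. IDH1, IDH3G, OGDH and D2HGDH were higher in JJ012, by log2 differences of 1.41, 1.34, 1.01 and 0.86 and ratios of CPM of 2.93, 2.65, 2.14 and 2.08. IDH2 was lower, at a log2 difference of −1.25 and a ratio of CPM of 0.408, as was IDH3B, at −0.60 and 0.641. IDH3A differed by 0.48 and was not called on this scale, and its ratio of CPM was 1.60. With length correction the differences were 0.63 for IDH3G, −1.18 for IDH3B and −1.97 for IDH2, and all 3 calls were kept. The D2HGDH call was lost under trimmed mean of M values (TMM) scaling, where its difference was 0.57.

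Between the melatonin libraries 6 of 7 genes were again called, 4 higher and 2 lower, at a background of 62.0% of 16239 genes, 38.8% higher and 23.2% lower. IDH3A was now among the higher, with a log2 difference of 1.57 and a ratio of CPM of 3.91, and IDH2 stood lower by a log2 difference of −2.05 and a ratio of CPM of 0.227. D2HGDH had a difference of 0.07, whose sign changed under other scalings, down to −0.25 with length correction. IDH1, OGDH, IDH3G and IDH3B differed by 1.48, 1.23, 1.02 and −0.78. These differences between the lines use the same 4 libraries as the melatonin changes and are not independent of them.

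**Figure D5:**
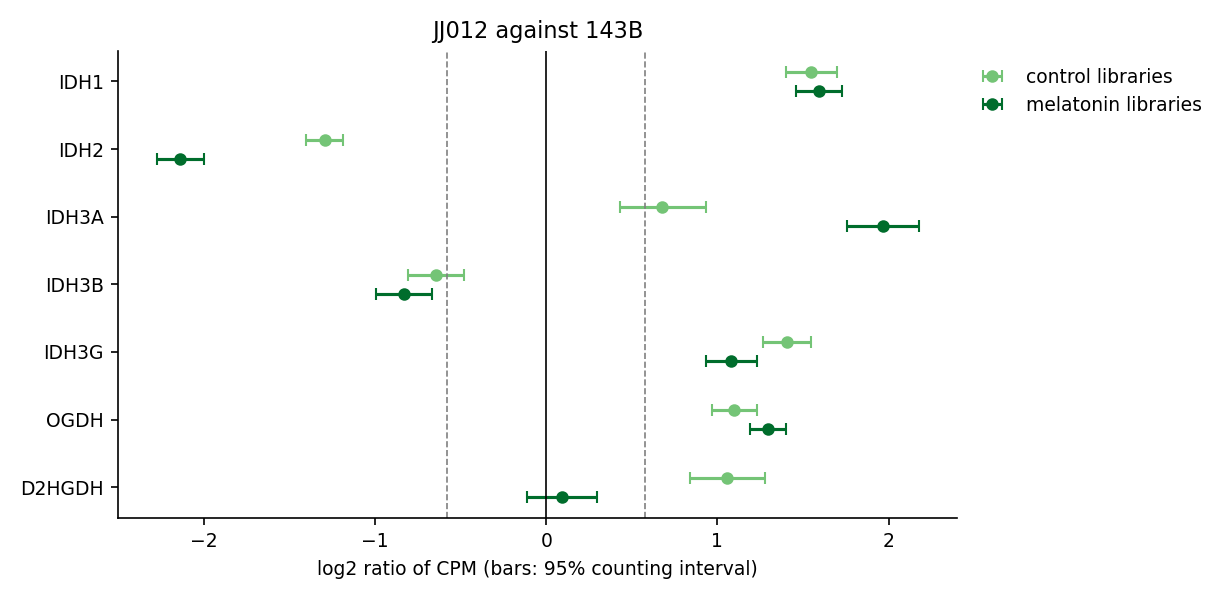
JJ012 against 143B as the log2 ratio of CPM (horizontal axis) for 7 genes, in the control libraries (light green) and the melatonin libraries (dark green). Bars are exact 95% counting intervals, the solid line marks 0 and dashed lines mark −0.58 and 0.58. IDH1, IDH3G and OGDH lie to the right and IDH2 and IDH3B to the left in both, IDH3A lies farther right in the melatonin libraries, and D2HGDH is near 0 there.

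Genes of the neighbouring reactions were read from 6 lists, beside 19.6% of all genes tested called higher and 18.6% lower in JJ012 with melatonin, and 6.09% and 6.65% in 143B. Of the partners of OGDH, the other subunits and relatives of its complex, 1 of 5 tested rose in JJ012 with melatonin, DHTKD1 (13.96 to 22.68 FPKM, log2 change 0.66), a relative of OGDH, and none of 6 was called in 143B, where the largest change was that of OGDHL at 0.17. The medians of the list were 0.31 and 0.12. Of 15 other TCA cycle genes 1 was called in JJ012, CS, the citrate synthase gene, which rose by 0.97 on the log2 scale (14.79 to 30.02 FPKM). None was called in 143B, where SDHB, a succinate dehydrogenase subunit, had the largest change at 0.30. The medians of this list were 0.09 and 0.10. Between the control libraries 9 of the 15 were higher in JJ012 and 0 lower, with a median of 1.09, beside 41.3% and 27.4% of all genes. Under TPM 9 were higher and 3 lower, and with length correction 9 and 1, with medians of 0.81 and 0.62.

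Of 8 other genes of 2-hydroxyglutarate metabolism, 1 rose and 1 fell in JJ012 and 1 rose in 143B, where 38.2% and 12.7% of all genes tested were called. LDHA, the lactate dehydrogenase subunit whose enzyme can also reduce 2-oxoglutarate to L-2-hydroxyglutarate, fell in JJ012 by 0.98 on the log2 scale (520.3 to 262.9 FPKM), and its change in 143B was −0.39. SLC25A11, the mitochondrial carrier that exchanges 2-oxoglutarate for malate, rose in 143B by 0.74 (5.37 to 9.64 FPKM) and had a change of −0.11 in JJ012. The medians of the list were −0.21 and 0.09.

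A list of 16 genes was read for NADPH production other than by IDH1 and IDH2. It includes NADK, NADK2, PGLS and MTHFD1L, whose enzymes do not themselves form NADPH. Of this list, 3 of 15 tested rose in JJ012 and 2 of 13 in 143B, and none fell. Of all genes tested, 19.6% were called higher and 18.6% lower in JJ012, and 6.09% and 6.65% in 143B. MTHFD1, a folate enzyme, had the largest JJ012 change, 0.79 on the log2 scale (2.02 to 4.24 FPKM), and NADK and ALDH1L2 were the others that rose. With length correction these changes were 0.44, 0.54 and 0.40 and none of the 3 was called, whereas under TPM 7 genes of the list were called. In 143B PGD, a dehydrogenase gene of the pentose phosphate pathway, rose by 0.62 (27.51 to 42.81 FPKM), and its change in JJ012 was 0.04. The list medians were 0.17 in JJ012 and 0.15 in 143B.

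Of the enzymes that lead from glutamine to 2-oxoglutarate, 3 of 7 tested rose and 1 fell in JJ012, and none of 6 was called in 143B. The shares called over all genes tested were 38.2% in JJ012 and 12.7% in 143B. GOT1, the cytosolic aspartate aminotransferase, rose in JJ012 by 1.12 (14.49 to 32.71 FPKM), and PSAT1 and GLUD1 rose by 0.91 and 0.66. With length correction the GLUD1 change was 0.35 and was not called, and under TPM 5 genes of the list were higher. GPT2, the mitochondrial alanine aminotransferase, fell by 0.91 (11.12 to 5.45 FPKM). The list medians were 0.43 and 0.05. NADK, ALDH1L2, PGD, PSAT1, GLUD1 and GPT2 were named after their values had been seen.

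Genes with patterns like those of the 8 were sought among the 4546 protein-coding genes that stood at 5 FPKM or more in all 4 libraries, by the Euclidean distance between log2 levels of FPKM + 1 less their own mean over the 4 libraries. The nearest to IDH1 was ZNF768, at a distance of 0.04 (28.53, 35.43, 9.67 and 12.22 FPKM in JJ012 control, JJ012 melatonin, 143B control and 143B melatonin), then M6PR and NAT9. CKB, MRGBP and MARCKSL1 were nearest to IDH2, UBXN2B, AHCTF1 and CHMP1B to IDH3A, GIGYF1, PNN and VTI1B to IDH3B, and LDB1, EDIL3 and BUD31 to IDH3G. PYGB, WIPI1 and TRIM37 were nearest to OGDH, and VPS4A, BOLA1 and CCDC71 to D2HGDH. Within a distance of 0.25 there were 5 genes for OGDH and 132 for IDH3B, with the others of the 7 between. Of ADHFE1, which is at the limit of detection, no likeness was read, although the same rule gives TAF11, LRRC59 and DMAC2. With 4 libraries these are descriptions, and no member of the 8 was among the nearest of another. IDH3A, D2HGDH and ADHFE1 fell below 5 FPKM in at least 1 library and so could not be among the candidates.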

How the data were processed

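Per the labels and the study's methods, poly(A) RNA extracted with TRIzol was sequenced as paired ends. The submitters' processing notes name the build hg38 and the tools cutadapt 1.9.1, HISAT2 2.2.1, HTSeq 0.6.1 and DESeq2. The annotation release and the strand setting are not given in the sources used here. Unnormalized counts of whole numbers and FPKM were deposited by the authors for every gene, and the FPKM recomputed from these counts, the deposited exonic length and the library total differed by at most 0.005. Columns were matched to samples by line, with the suffix T read as melatonin, and 0 sample columns were left unmapped.

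With 1 library per condition no test within a line was possible, and edgeR's quasi-likelihood test served only for a shared melatonin effect with line as a block, added after seeing the data. The log2 fold change of FPKM + 1 was called at 0.58, over genes with at least 1 FPKM in 1 compared library. The ratio of CPM has an exact (Clopper-Pearson) 95% interval, and differences between lines a log-normal one. Both cover counting error only. Alternatives were a pseudocount of 0.1 FPKM, no filter or a filter of 5 FPKM, a threshold of 1, TPM, CPM, TMM (edgeR 4.0.16), median-of-ratios scaling, median centring and subtraction of a running median over exonic length (501 genes). The CPM interval rule, the protein-coding length trend, transcript lengths and scalings of the line difference were added after seeing the data. The scripts were tested on simulated counts. The 8 genes and the 6 lists were chosen with earlier results of these data known. The genes named from each list are those called in both lines or in opposite directions and that with the largest change in each line, and the 3 nearest by pattern for each of the 8. Some genes that this rule names are not reported here. Gene positions are those of the authors' table, and gene types came from GENCODE release 29, which gives an identical position for 2 of the 8. Python 3.11.15, numpy 2.4.6, scipy 1.17.1, pandas 2.3.3, matplotlib 3.10.9 and R 4.3.3 were used.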

Additional observations from a re-analysis of the deposited data

Results flagged for a closer look

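IDH2 had log2 ratios of CPM, melatonin over control, of opposite sign in the lines, −0.72 in JJ012 and 0.13 in 143B, a difference of −0.8445. D2HGDH had values of −0.35 in JJ012 and 0.61 in 143B, a difference of −0.966. On the log2 scale of FPKM + 1 the IDH2 change in 143B and both D2HGDH changes were below the threshold, and the D2HGDH change in JJ012 was −0.08 under TPM. As much as the IDH2 change in 143B or more was seen in 67.3% of the genes tested there, and under TPM it was 0.07. Both counting intervals exclude 0 in each line, but each line is 1 control and 1 melatonin library, so the difference was not tested.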

How the results depend on the processing

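No library could be left out, since each condition is 1 library. The lines pair the control and melatonin libraries, and the fit of a shared melatonin effect with line as a block called 0 of the 7 genes (1 at an unadjusted p under 0.05). No called value of the 8 genes changed sign under any alternative run. Of the listed genes called higher in JJ012 control than in 143B control, MRPS36, SDHC and GPT had length-corrected differences of −0.15, −0.02 and −0.02. In JJ012 the count of called genes among the 8 went from 3 to 1 at a threshold of 1, which left IDH3A. In 143B it went from 0 to 2 with a pseudocount of 0.1 FPKM and with the CPM interval rule (OGDH and D2HGDH) and to 1 with CPM (D2HGDH). By CPM without division by length, the order of levels kept 4 of 8 places in JJ012 control, 3 in JJ012 melatonin and 4 in 143B melatonin, and with transcript lengths 4 in JJ012 control and 3 in JJ012 melatonin. Called genes in JJ012 went, under TPM, from 1 to 3 for the OGDH partners, from 1 to 2 for the TCA cycle and from 3 to 7 for the NADPH list. With length correction they went to 3 for the OGDH partners, 1 for 2-hydroxyglutarate metabolism and 0 for the NADPH list. In 143B the NADPH list went from 2 to 1 under TPM and with length correction, and the dioxygenase list from 3 to 6 under TPM, with 3 higher and 3 lower. TPM moved the median JJ012 change of all genes from 0.01 to 0.27 and the share of called genes that were higher from 51.4% to 68.8%. Between the controls that share went from 60.1% to 49.3% under TPM and 49.6% under TMM, and in 143B from 47.8% to 35.2% with length correction on protein-coding genes. The IDH3A difference between the controls was called with a pseudocount of 0.1 FPKM and on CPM, and the D2HGDH call there was lost under TMM, median centring and length correction. Why these values moved was not tested. For single genes of the 8, the 95% counting interval of the log2 ratio of CPM was moved onto the main log2 change of FPKM + 1. Of the alternative values, 175 lay within the interval so moved and 73 did not. At this depth ADHFE1, with 2 to 9 counts, allows no statement on change.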

Other observations

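The enzymes that use 2-oxoglutarate to hydroxylate or demethylate their substrates, were read as a list of 48 dioxygenase genes. In JJ012 9 of 41 tested rose and 10 fell, beside 19.6% and 18.6% of all genes tested, with a median log2 change of 0.06. Under TPM 15 were higher and 8 lower. In 143B 3 of 42 rose and none fell, beside 6.09% and 6.65% of all genes tested and 3.48% and 2.6% of protein-coding genes, with a median of −0.12. Under TPM 3 were higher and 3 lower. Genes named by the rule were PLOD2, a collagen lysyl hydroxylase, which fell in JJ012 by 1.62 (143.3 to 45.78 FPKM) and had a change of −0.08 in 143B, and ALKBH3, a demethylase of alkylated nucleic acids, which rose in 143B by 0.80 (2.43 to 4.97 FPKM) and had a change of −0.49 in JJ012. RIOX2, a ribosomal oxygenase, rose in both lines, by 0.81 and 0.66.

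The following genes were named after their values were seen, and their grouping was not tested. Of the 10 that fell, 8 encode collagen prolyl or lysyl hydroxylases, namely P4HA1, P4HA2, PLOD1, PLOD2, PLOD3, P3H1, P3H2 and P3H3, with log2 changes from −1.62 (PLOD2) to −0.72 (PLOD3). The others that fell were PHYH (−0.69) and P4HTM (−0.94). Of the 9 that rose, 6 belong to the JmjC-domain lysine demethylase families, of which 15 genes were tested and none fell, KDM3A, KDM3B, KDM5A, KDM6B, KDM7A and JMJD1C, with KDM7A (3.72 to 13.24 FPKM, 1.59) and JMJD1C (1.29) at the top, beside OGFOD1, HIF1AN and RIOX2. In 143B the 8 hydroxylases had changes from −0.49 (P4HA1) to 0.19 (P3H3), none called. After length correction 5 of the 9 that rose and 9 of the 10 that fell were still called. Of all genes tested, 18.1% were then higher and 16.4% lower. Of the 6 demethylase genes these were KDM3A, KDM7A and JMJD1C, that is 3 of the 15 tested, a share near that of all genes. All 8 hydroxylases, of 8 tested, were among them. Under TPM 8 genes of the whole list were lower in place of 10, and the hydroxylases among them were not counted.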
